A study of Mus musculus with 4 samples.

Results

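Complement is a set of secreted and membrane proteins that tag cells and debris for removal, and 8 of its genes are described here among the 24421 genes counted. They were taken by symbol. C1qa, C1qb and C1qc encode the chains of the recognition molecule C1q, C3 and C4b encode the components that are cleaved and deposited on surfaces, and Serping1, Cd55 and Cd59a encode regulators. The libraries are poly(A) RNA of mouse neural stem cells from the cerebral cortex at embryonic day 17, grown for 1 day with basic FGF and EGF at 10 ng/mL each. In 2 libraries the cells carried the genotype Prrc2bf/f; Nestin-Cre, that is, floxed alleles of Prrc2b together with Cre recombinase under control of the Nestin (Nes) promoter and enhancer. In the other 2 the cells were Prrc2bf/f, with the same floxed alleles and no Cre, and are called floxed control here. All were labelled as cells of C57BL/6J mice. Nestin-Cre acts in neural progenitors and the cells they give rise to, a lineage to which microglia do not belong.

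As background, C1q binds a target and switches on its attached proteases C1r and C1s, which cleave C4 and C2. The enzyme so formed cleaves C3, whose fragments mark the target for uptake and lead on to the membrane attack complex. The secreted inhibitor made by Serping1 blocks C1r and C1s, CD55 breaks up the enzymes that cleave C3, and CD59 stops the last step. In brain, C1q is made mostly by microglia, C3 and C4 are made by several cell types, astrocytes among them, and both C1q and C3 are known for their part in the removal of synapses.

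The libraries held 25936794 to 28205590 gene counts under the label Nestin-Cre and 26491919 to 28263272 in floxed control, so that 3 counts stood for 0.106 to 0.116 counts-per-million (CPM). Prrc2b itself was at 575 ± 1.43 CPM in libraries labelled Nestin-Cre and 590 ± 4.19 CPM in floxed control (SD, n = 2 each). The files do not show which exon was floxed, so this total does not check the label. Uty, Kdm5d, Eif2s3y and Ddx3y, all Y-linked, were at 0 counts in both libraries labelled Nestin-Cre and averaged 6.79 to 24.0 CPM in floxed control, so every comparison below is also one between libraries without and with Y-linked transcripts. Xist, the transcript of the inactive X chromosome, was present in all 4 libraries, at 2214 and 2124 CPM under the label Nestin-Cre, against 1668 and 1611 CPM in floxed control. The controls thus held both Xist and Y-linked transcripts, the labels used here do not say how many embryos of which sex went into a library, and sex composition and genotype cannot be told apart. The stem cell genes Sox2, Nes and Pax6 were present in all libraries, with a summed level of 1033 CPM in each library labelled Nestin-Cre and 1110 and 1134 CPM in floxed control. The labels do not say whether replicates are separate embryos or cultures, and each p-value therefore reflects no more than the variation among these 4 libraries, possibly technical.

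Of the 8 members, 6 were lower, 1 was higher and 1 did not pass the test in libraries labelled Nestin-Cre. The C1q chains, C3, C4b and Serping1 fell, Cd55 rose, and Cd59a was at a higher mean level without passing. All 8 had enough counts to be tested, and the threshold was an adjusted p of 0.05 in edgeR's quasi-likelihood test over 15012 genes. In the same fit 33.1% of all tested genes passed, 18.1% as lower and 15.1% as higher. The median log2 fold change was -1.44 over the members, beside 0.0047 over all tested genes.

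**Figure D1:**
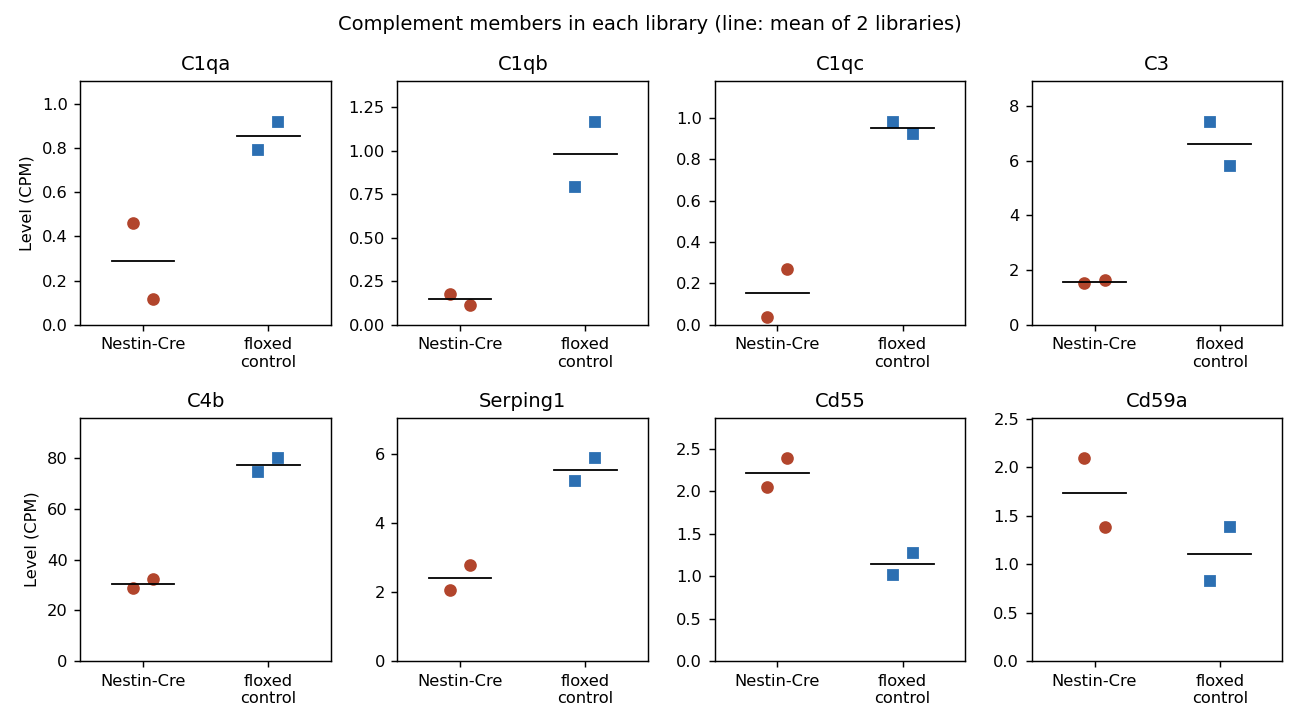
Level of each of the 8 complement genes in CPM, on axes that start at 0, with 1 point per library (circles, libraries labelled Nestin-Cre; squares, floxed control) and a line at the mean of the 2 libraries of a group. The first 6 genes lie lower in libraries labelled Nestin-Cre, Cd55 lies higher, and for Cd59a the lower Nestin-Cre point (1.39 CPM) and the higher control point (1.38 CPM) nearly coincide.

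The C1q chains were scarce in every library and scarcer under the label Nestin-Cre. The genes stand side by side on the minus strand of chromosome 4 (mm10), C1qb from 136880129 to 136886187, C1qc from 136889804 to 136893065 and C1qa from 136895917 to 136898803, within 18.7 kb. Of these, C1qb and C1qc have an upstream sequence in the RefSeq promoter table used here, and C1qa does not. The sequences are shown because both genes fell. Capitals mark matches to GAGGAA on either strand, the core bound by the macrophage transcription factor PU.1. The window of C1qc is cut where the GENCODE annotation begins to count the gene as transcribed.
C1qb, chr4:136886201-136886450, minus strand: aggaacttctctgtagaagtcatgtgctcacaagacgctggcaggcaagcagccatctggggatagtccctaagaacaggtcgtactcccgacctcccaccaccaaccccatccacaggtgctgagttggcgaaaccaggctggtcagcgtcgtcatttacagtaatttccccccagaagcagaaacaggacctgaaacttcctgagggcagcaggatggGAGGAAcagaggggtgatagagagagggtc
C1qc, chr4:136893066-136893164, minus strand: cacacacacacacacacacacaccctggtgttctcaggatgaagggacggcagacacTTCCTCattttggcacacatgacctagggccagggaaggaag
Each of these windows holds 1 match, and 23.3% of the 32851 windows in the table hold at least 1 when 250 bases are searched. Neither holds the interferon-response form GAAANNGAA, which 7.1% of all windows contain, nor the STAT-binding form TTCNNNGAA, which 7.0% contain. Both strands were searched, no match overlaps another kind, and a match describes the letters alone.

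C1qa had 13 and 3 counts in libraries labelled Nestin-Cre, against 21 and 26 counts in floxed control. C1qb had 5 and 3 counts in libraries labelled Nestin-Cre, against 21 and 33 counts in floxed control. C1qc had 1 and 7 counts in libraries labelled Nestin-Cre, against 26 and 26 counts in floxed control. No chain overlapped between the groups, which was also true of 65.1% of all tested genes. In the fit, C1qa fell by 1.53 ± 0.45 on the log2 scale (SE; edgeR adjusted p = 0.0074), C1qb fell by 2.71 ± 0.49 (adjusted p = 3.1e-05) and C1qc fell by 2.65 ± 0.51 (adjusted p = 7.4e-05). The smaller fall of C1qa was not distinguishable from that of C1qb, with a difference of 1.18 whose 95% interval ran from -0.18 to 2.53, nor from that of C1qc (1.12, from -0.26 to 2.51).

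The C1qa call rested on few counts. Without replicate 2 of the libraries labelled Nestin-Cre its log2 fold change was -0.90 (adjusted p = 0.194), and without replicate 1 it was -2.85 (adjusted p = 0.0010). For C1qc the same omissions gave -4.58 and -1.81, both past the threshold. DESeq2 gave C1qa an adjusted p of 0.12.

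Counted together, the 3 chains gave 19 and 13 counts in libraries labelled Nestin-Cre, against 68 and 85 counts in floxed control. That is 0.674 and 0.501 CPM under the label Nestin-Cre, against 2.57 and 3.01 CPM in floxed control. As 1 row in the fit, C1q was 4.72-fold lower in libraries labelled Nestin-Cre (95% interval 3.22 to 6.94, adjusted p = 1.8e-08).

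C3, the component on which all activation routes converge, fell further than C4b. The gene lies on the minus strand of chromosome 17 from 57203970 to 57228136. Its upstream sequence is shown with capitals at each match to TTNNGNAA, a form bound by C/EBP factors, which act on many acute-phase genes.
C3, chr17:57228137-57228386, minus strand: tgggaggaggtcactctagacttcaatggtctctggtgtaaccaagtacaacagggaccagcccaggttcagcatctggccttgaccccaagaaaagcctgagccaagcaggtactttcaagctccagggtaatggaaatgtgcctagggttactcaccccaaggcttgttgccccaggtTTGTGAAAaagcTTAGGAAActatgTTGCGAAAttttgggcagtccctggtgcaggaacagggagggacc
The window holds 3 matches within 70 bases of the start, and 36.8% of all windows hold at least 1. It holds no GAGGAA, TTCNNNGAA or GAAANNGAA.

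C3 had 43 and 42 counts in libraries labelled Nestin-Cre, against 197 and 164 counts in floxed control. The level was 1.57 ± 0.067 CPM under the label Nestin-Cre and 6.62 ± 1.16 CPM in floxed control (SD, n = 2 each), and the groups did not overlap. C3 was thus 4.21-fold lower (log2 fold change -2.07 ± 0.18, adjusted p = 5.5e-12).

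C4b was the most abundant member in every library, by count and per kilobase of exon. It lies on the minus strand of chromosome 17 from 34728380 to 34743882, and encodes the component cleaved after C1q or a lectin has bound. C4b had 810 and 839 counts in libraries labelled Nestin-Cre, against 1969 and 2253 counts in floxed control. The level was 30.5 ± 2.57 CPM under the label Nestin-Cre and 77.0 ± 3.81 CPM in floxed control, a 2.54-fold fall with a 95% interval of 2.36 to 2.73 (log2 fold change -1.35 ± 0.05, adjusted p = 1.8e-22). The fall of C3 exceeded that of C4b by 0.73 on the log2 scale, with a 95% interval of the difference, C3 minus C4b, from -1.11 to -0.35.

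The neighbouring paralog C4a, 65.2 kb away on the same strand, is nearly identical in sequence. It had 48 and 63 counts in libraries labelled Nestin-Cre, against 63 and 53 counts in floxed control, and the groups overlapped. Its log2 fold change was -0.05 ± 0.22 (adjusted p = 0.884), a value that turned to 0.19 without replicate 1 of the libraries labelled Nestin-Cre and to 0.12 without floxed control replicate 1. C4b minus C4a was -1.29, with a 95% interval from -1.76 to -0.82. How the counting shared reads between the pair is not known, so both totals are uncertain. Added up before the fit, the pair was still lower (log2 fold change -1.29, adjusted p = 5.8e-22).

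Serping1, on the minus strand of chromosome 2 from 84765387 to 84775444, encodes the C1 inhibitor, which in the body also restrains proteases of coagulation and kinin release. It had 58 and 72 counts in libraries labelled Nestin-Cre, against 138 and 166 counts in floxed control, with no overlap. The level was 2.42 ± 0.509 CPM under the label Nestin-Cre and 5.54 ± 0.470 CPM in floxed control. Serping1 fell by 1.21 ± 0.17 on the log2 scale (adjusted p = 2.5e-07). Its fall and that of C4b did not differ measurably (C4b minus Serping1 -0.13, 95% interval from -0.49 to 0.23).

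The membrane regulators among the 8 members, Cd55 and Cd59a, were at higher mean levels under the label Nestin-Cre. Outside the members, the membrane regulator Cr1l was lower (log2 fold change -0.23) and Cd46 did not pass (-0.34). Cd55, also called decay-accelerating factor, lies on the minus strand of chromosome 1 from 130439027 to 130462744. It had 58 and 62 counts in libraries labelled Nestin-Cre, against 27 and 36 counts in floxed control, with no overlap. The level was 2.22 ± 0.236 CPM under the label Nestin-Cre and 1.15 ± 0.180 CPM in floxed control. Cd55 was 1.91-fold higher (log2 fold change 0.94 ± 0.25, adjusted p = 0.0028), and DESeq2 gave an adjusted p of 0.069. An antisense gene, Gm16083, overlaps it, and the counting's strand setting is unknown here, so the pair's reads may be mixed. The paralog Cd55b had 0 counts in all 4 libraries.

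The upstream sequence of Cd55 is shown as that of the member that rose. No part is in capitals, because none of the letters searched (GAGGAA, TTNNGNAA, TTCNNNGAA and GAAANNGAA) is in it.
Cd55, chr1:130462745-130462994, minus strand: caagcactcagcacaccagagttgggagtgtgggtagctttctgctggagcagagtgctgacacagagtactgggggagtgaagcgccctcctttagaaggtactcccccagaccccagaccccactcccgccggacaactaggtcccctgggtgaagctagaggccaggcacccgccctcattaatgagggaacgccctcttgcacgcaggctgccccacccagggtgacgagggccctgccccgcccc

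Cd59a (chromosome 2, 104095801 to 104115354, plus strand) encodes the inhibitor of the membrane attack complex. It had 59 and 36 counts in libraries labelled Nestin-Cre, against 22 and 39 counts in floxed control. In CPM these were 2.09 and 1.39 under the label Nestin-Cre, against 0.830 and 1.38 in floxed control, so the libraries of the groups nearly met. The log2 fold change was 0.65 ± 0.28 and missed the threshold (adjusted p = 0.0733). It passed without replicate 2 of the libraries labelled Nestin-Cre (0.90, adjusted p = 0.0229) and without floxed control replicate 2 (1.07, adjusted p = 0.0189), and missed without the other library of either group (0.31 and 0.34). Its upstream window, not printed, holds 1 GAGGAA at 62 bases and 1 GAAANNGAA at 187 bases before the start, so that among the 5 members with a window GAGGAA was found in C1qb, C1qc and Cd59a and not in C3 and Cd55. The paralog Cd59b, 4.6 kb away, had 9 and 4 counts in libraries labelled Nestin-Cre, against 11 and 7 counts in floxed control, too few to test.

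CPM per kilobase of exon was used to rank the genes against each other. In libraries labelled Nestin-Cre this level was 5.36 for C4b, 1.04 for Serping1, 0.963 for Cd59a, 0.458 for Cd55, 0.306 for C3, 0.277 for C1qa, 0.135 for C1qb and 0.0792 for C1qc, each a mean of 2 libraries. In floxed control it was 13.6 for C4b, 2.38 for Serping1, 1.29 for C3, 0.899 for C1qb, 0.824 for C1qa, 0.611 for Cd59a, 0.492 for C1qc and 0.236 for Cd55. C4b and Serping1 led in both groups, whereas Cd55 was the lowest member in floxed control and stood above C3 and each C1q chain under the label Nestin-Cre. Some genes near each other in these orders overlapped between libraries. Under the label Nestin-Cre these were Serping1 with Cd59a, Cd55 with C1qa, C3 with C1qa, and the C1q chains with each other. In floxed control C1qa overlapped with C1qb, and Cd59a with C1qc and C1qb, while Cd59a also came close to C1qa.

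The question whether C1q moved unlike the components and regulators that other cell types make was addressed by ratios within each library, which do not depend on scaling. There were 0.442 and 0.309 C1q counts per C3 count in libraries labelled Nestin-Cre, against 0.345 and 0.518 in floxed control, so these ratios overlapped. Per C4b count there were 0.0235 and 0.0155 C1q counts in libraries labelled Nestin-Cre, against 0.0345 and 0.0377 in floxed control. Per Serping1 count there were 0.328 and 0.181 C1q counts under the label Nestin-Cre, against 0.493 and 0.512 in floxed control. C1q was thus lower relative to C4b and Serping1 in both libraries labelled Nestin-Cre, and not relative to C3.

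The widest separation was from the membrane regulators Cd55 and Cd59a. Per Cd55 count there were 0.328 and 0.210 C1q counts in libraries labelled Nestin-Cre, against 2.52 and 2.36 in floxed control. Per Cd59a count there were 0.322 and 0.361 under the label Nestin-Cre, against 3.09 and 2.18 in floxed control. With 2 against 2 libraries an exact two-sided permutation test cannot give a p below 0.33, which was the value for all of these ratios but that to C3 (0.667).

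Differences between the fitted fold changes, with the errors of 2 genes taken as independent, gave intervals for the same question. Summed C1q minus C4b was -0.89 on the log2 scale, with a 95% interval from -1.46 to -0.33, and summed C1q minus Serping1 was -1.02, from -1.68 to -0.37. Against C3 the difference was -0.16, from -0.83 to 0.50, and against Cd55 it was -3.18, from -3.92 to -2.43. The intervals are not adjusted for the 12 pairs compared.

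Markers of several cell types moved in the same libraries. The 7 defining markers of microglia (Cx3cr1, P2ry12, Tmem119, Csf1r, Aif1, Ptprc and Spi1) summed to 66 and 54 counts in libraries labelled Nestin-Cre, against 76 and 105 counts in floxed control. That was 2.34 and 2.08 CPM under the label Nestin-Cre, against 2.87 and 3.72 CPM in floxed control, and none was at 0 in all libraries. Of the 20 microglial markers listed, without C1q, 9 could be tested, and of these 6 were lower, 0 were higher and 3 did not pass. The defining marker Aif1, too scarce to be tested, went the other way, with 15 and 8 counts in libraries labelled Nestin-Cre, against 2 and 3 counts in floxed control. The whole list summed to 76.0 and 77.1 CPM under the label Nestin-Cre, against 91.8 and 92.0 CPM in floxed control. Sall1, Cd68 and Lyz2 held most of those counts and are not restricted to microglia. Sall1 (log2 fold change -0.17) and Lyz2 (-1.12) were among the lower markers, and Cd68 did not pass. Without these genes the list summed to 4.36 and 3.82 CPM under the label Nestin-Cre, against 7.93 and 8.70 CPM in floxed control. Of the 6 markers that could then be tested, 4 were lower, 0 were higher and 2 did not pass. Among all tested genes 18.1% passed as lower. The tested marker with the steepest fall was Fcrls, an Fc receptor-like gene of microglia, which had 5 and 2 counts under the label Nestin-Cre, against 22 and 27 counts in floxed control.

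For each 1000 counts of the defining microglial markers there were 288 and 241 C1q counts in libraries labelled Nestin-Cre, against 895 and 810 in floxed control. Without Aif1 the markers summed to 51 and 46 counts under the label Nestin-Cre, against 74 and 102 counts in floxed control, and the ratio was 373 and 283 under the label Nestin-Cre, against 919 and 833 in floxed control. In bulk RNA, fewer cells of a type and less RNA per cell cannot be told apart. The defining marker sums held only 54 to 105 counts per library. Tested microglial markers had log2 fold changes from -2.76 (Fcrls) to -0.07 (Cd68), beside -2.24 for summed C1q. The ratios therefore depend on the markers chosen, and the part of microglial abundance in the C1q result was not tested.

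The defining astrocyte and fibroblast markers were lower as well. The defining astrocyte markers Gfap, Aqp4 and Aldh1l1 summed to 908 and 909 CPM in libraries labelled Nestin-Cre, against 1604 and 1627 CPM in floxed control. Most of that difference lay in Gfap, at a mean of 326 CPM under the label Nestin-Cre and 867 CPM in floxed control. Of 11 tested astrocyte markers 6 were lower, 3 were higher and 2 did not pass, with a median log2 fold change of -0.08. The whole astrocyte list summed to 2225 and 2224 CPM under the label Nestin-Cre, against 2914 and 2941 CPM in floxed control. The defining fibroblast markers were Col1a1, Col1a2, Col3a1, Dcn and Lum. They summed to 44.1 and 48.4 CPM under the label Nestin-Cre, against 168 and 165 CPM in floxed control. Of 13 tested fibroblast and meningeal markers 8 were lower, 4 did not pass and 1 was higher. The higher one was Ogn (log2 fold change 2.07). It had 207 and 182 counts under the label Nestin-Cre, against 43 and 50 counts in floxed control. The defining endothelial markers Pecam1, Cdh5 and Cldn5 summed to 5.14 and 5.28 CPM under the label Nestin-Cre, against 6.68 and 5.56 CPM in floxed control. Of these 3, Cdh5 fell, with 24 and 31 counts under the label Nestin-Cre, against 68 and 63 counts in floxed control, whereas Pecam1 (log2 fold change 0.09) and Cldn5 (0.35) did not pass. Of 10 tested endothelial markers 2 were lower (Cdh5 and Flt1), 1 was higher (Kdr, 0.79) and 7 did not pass, with a median log2 fold change of 0.11. The whole endothelial list summed to 21.5 and 22.5 CPM under the label Nestin-Cre, against 27.0 and 28.9 CPM in floxed control. Choroid plexus markers went the other way, with 9 of 10 higher. The list summed to 1379 and 1394 CPM under the label Nestin-Cre, against 215 and 222 CPM in floxed control.

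**Figure D2:**
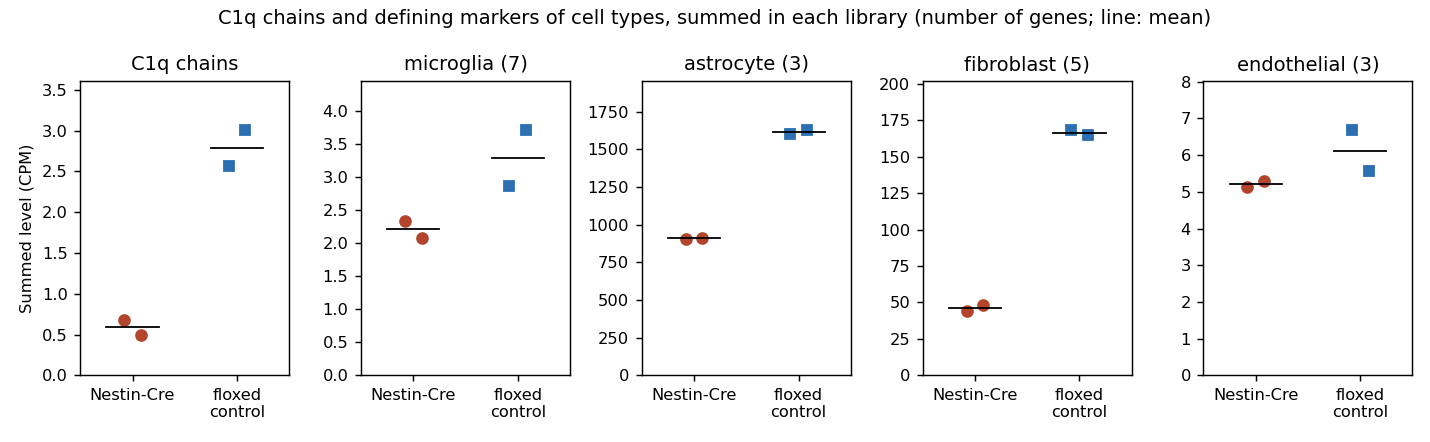
Summed level in CPM, on axes that start at 0, of the 3 C1q chains and of the defining markers of 4 cell types, with 1 point per library (circles, libraries labelled Nestin-Cre; squares, floxed control) and a line at the mean of a group. All 5 sums lie lower in libraries labelled Nestin-Cre, with the endothelial sum separated least (5.14 and 5.28 CPM against 6.68 and 5.56 CPM) and lower through Cdh5 alone.

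Against these markers the members kept different proportions. For each 1000 counts of the defining astrocyte markers there were 31.6 and 35.6 C4b counts in libraries labelled Nestin-Cre, against 46.3 and 49.0 in floxed control. For each 1000 counts of the defining fibroblast markers there were 651 and 669 C4b counts under the label Nestin-Cre, against 442 and 484 in floxed control. C4b was therefore lower relative to the summed defining astrocyte markers and higher relative to the summed defining fibroblast markers. C4b (log2 fold change -1.35) fell less than Col1a1, Col3a1 and Lum and further than Col1a2 (-0.95) and Dcn (-0.885). The whole fibroblast and meningeal list fell less than C4b. It summed to 102.5 and 106.2 CPM under the label Nestin-Cre, against 230.5 and 226.5 CPM in floxed control. Gfap (-1.42) fell slightly further than C4b, and Aqp4 (-0.62) and Aldh1l1 (-0.31) fell less. C3 gave 34.6 and 33.5 counts for each 1000 counts of the defining fibroblast markers under the label Nestin-Cre, against 44.2 and 35.2 in floxed control. Summed C1q gave 15.27 and 10.36 counts per 1000 of these fibroblast counts under the label Nestin-Cre, against 15.26 and 18.26 in floxed control, so the groups overlapped. Per 1000 counts of the defining astrocyte markers it gave 0.742 and 0.552 under the label Nestin-Cre, against 1.60 and 1.85 in floxed control. The part of these cell types in the members' levels was not tested.

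The rest of the pathway was described from a list of 50 other complement genes, of which 28 had enough counts to be tested. Of these, 10 were lower, 5 were higher and 13 did not pass in libraries labelled Nestin-Cre, with a median log2 fold change of -0.14. The share that passed as lower is to be read against the 18.1% of all tested genes, and the share that passed as higher against 15.1%. C1rb, Cfd, Mbl1, Fcnb, Colec10, C9, Cd55b and Vsig4 had 0 counts in all libraries, which allows up to 0.116 CPM in the least deep one.

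Among the proteases and recognition molecules, C1ra and C1s1, which encode the proteases that C1q carries, were lower. C1ra had 30 and 33 counts in libraries labelled Nestin-Cre, against 55 and 56 counts in floxed control (log2 fold change -0.81 ± 0.25, adjusted p = 0.0106), and C1s1 had 30 and 34 counts against 59 and 54 counts (-0.81 ± 0.25, adjusted p = 0.0103). Both calls were lost without replicate 1 of the libraries labelled Nestin-Cre (adjusted p = 0.123 and 0.129) or floxed control replicate 1 (0.0531 and 0.0904). Their paralog C1s2 did not pass (0.18 ± 0.25), and reads could have been split within this family.

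Of the lectin route, Masp1 and Colec11 were higher and Masp2 did not pass (0.32 ± 0.22). Masp1, a protease that partners with lectins, was at 21.1 ± 0.913 CPM in libraries labelled Nestin-Cre and 16.3 ± 0.539 CPM in floxed control (0.37 ± 0.07, adjusted p = 0.00013). Colec11, a lectin that recognises sugars on targets, had 17 and 21 counts under the label Nestin-Cre, against 6 and 1 counts in floxed control (2.41 ± 0.57, adjusted p = 0.0009). The Colec11 value was 1.60 (adjusted p = 0.0549) without floxed control replicate 2 and 4.14 without floxed control replicate 1. C2 and Cfb, which lie near C4b in the major histocompatibility complex and supply the enzyme parts of the convertases, did not pass, at -0.24 ± 0.31 and -0.03 ± 0.17.

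Of the fluid-phase regulators, the chaperone gene Clu, whose product also binds the terminal complex, fell to 121 ± 5.00 CPM in libraries labelled Nestin-Cre, against 157 ± 1.75 CPM in floxed control (-0.39 ± 0.03, adjusted p = 4.2e-12). Vtn, the vitronectin gene, fell by 0.87 ± 0.30 on the log2 scale, a call lost without replicate 2 of either group. Cfp, encoding properdin, which stabilises the alternative convertase, was higher by 0.24 ± 0.10 (adjusted p = 0.0484), a call lost when any of the 4 libraries was left out (adjusted p from 0.0794 to 0.214).

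Among receptors and membrane regulators, Itgb2, the beta chain shared by the integrin complement receptors of leukocytes, had 4 and 16 counts in libraries labelled Nestin-Cre, against 35 and 29 counts in floxed control (-1.66 ± 0.41, adjusted p = 0.0015). Without replicate 1 of the libraries labelled Nestin-Cre it missed the threshold (-0.93, adjusted p = 0.124). C3ar1, the receptor for a C3 fragment, had 3 and 10 counts under the label Nestin-Cre, against 22 and 11 counts in floxed control, and did not pass (adjusted p = 0.0518). Cr1l, the rodent membrane regulator also called Crry, was lower by a small amount (-0.23 ± 0.07, adjusted p = 0.0130), a call lost without replicate 2 of either group. Cd46 did not pass (-0.34 ± 0.26).

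Cd93, a surface glycoprotein first described as a C1q receptor, fell to 23.9 ± 1.49 CPM in libraries labelled Nestin-Cre, against 37.4 ± 0.394 CPM in floxed control (adjusted p = 1.7e-11). Csmd1, a large membrane protein of the nervous system with complement-control domains, fell to 22.1 ± 0.317 CPM under the label Nestin-Cre, against 34.5 ± 0.543 CPM in floxed control (adjusted p = 2.7e-11), while the related Csmd2 was higher (0.22 ± 0.04, adjusted p = 1.7e-05). The chaperone gene Calr was lower (-0.19 ± 0.02, adjusted p = 9.4e-08). C8g, the gamma chain of a terminal component, was higher (0.39 ± 0.14, adjusted p = 0.0294), and that call was lost without each library except floxed control replicate 1. With DESeq2 the calls of C1ra, C1s1, Cfp, C8g, Cr1l, Vtn and Itgb2 were lost (adjusted p from 0.0508 to 0.308).

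**Figure D3:**
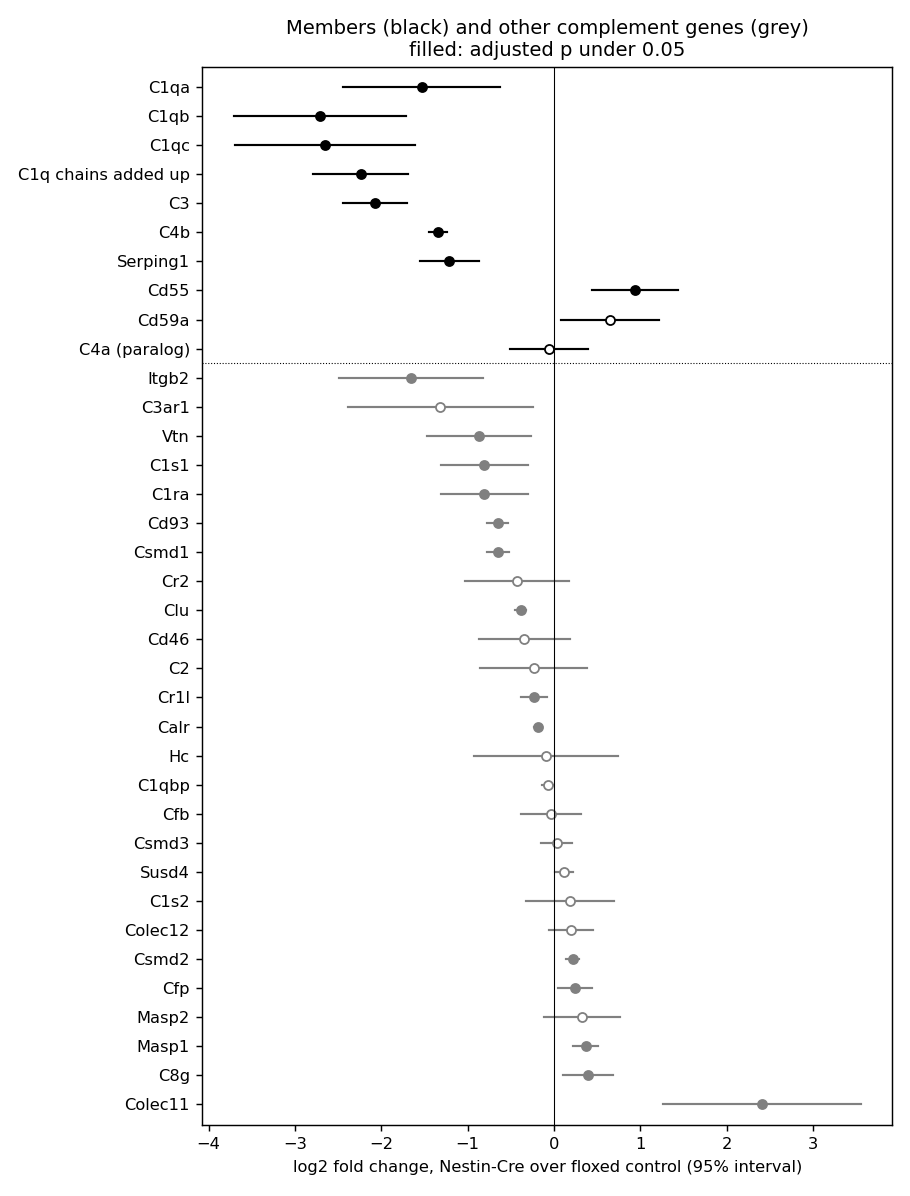
Log2 fold change of libraries labelled Nestin-Cre over floxed control with its 95% interval for the 8 members, the summed C1q chains and C4a (black) and for other tested complement genes (grey, in order of value), filled where the adjusted p was under 0.05. C1q, C3, C4b and Serping1 lie left of 0 and Cd55 right of it, while C4a, C2 and Cfb lie near 0 with intervals that include it.

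For each member past the threshold, the tested genes with the most similar pattern were found by the Euclidean distance between centred log2 CPM values over the 4 libraries, among genes whose mean log2 CPM was within 1 of the member's. C3 was closest to the chemokine gene Cxcl1 (distance 0.195 among 1779 genes), whose own log2 fold change was -2.18 ± 0.16. C4b was closest to the transcription factor gene Junb (0.162 among 5512 genes), the Notch ligand gene Jag1 (0.175) and the interferon-induced membrane protein gene Ifitm3 (0.192). Serping1 was closest to the collagen gene Col7a1 (0.131 among 1830 genes), followed by Gadd45b and Parp14. C1qb was closest to the angiotensin receptor gene Agtr2 (0.311 among 1023 genes), with Fcrls in the third place (0.444). With 4 libraries such distances reflect mainly the difference between the groups.

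**Figure D4:**
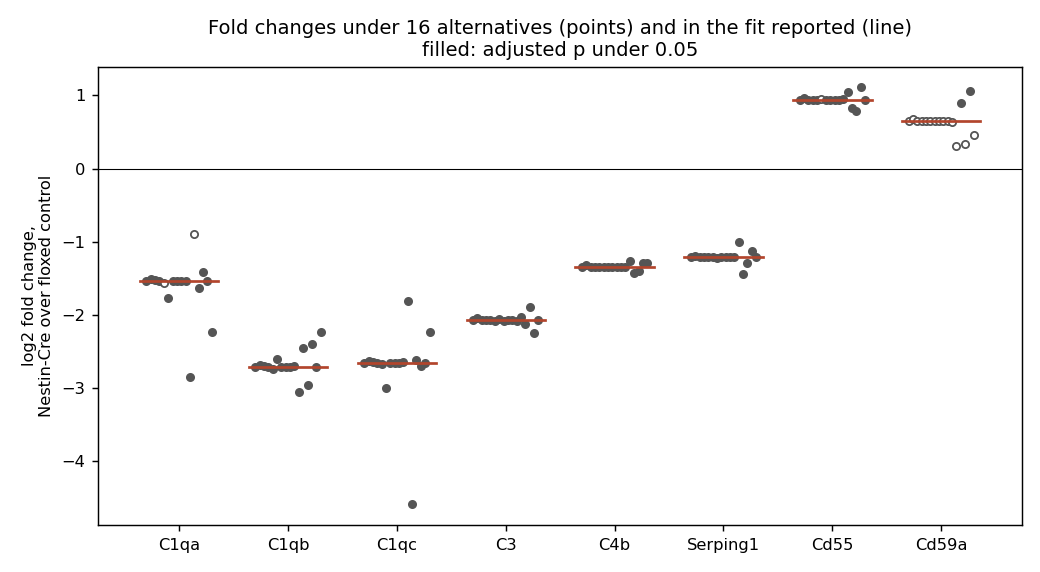
Log2 fold change of each member under 16 alternatives of processing (points, in the same order for each gene where a value could be had; filled where the adjusted p was under 0.05) and in the fit reported (line). C3, C4b and Serping1 stay below 0 and filled throughout, between -2.25 and -1.01, while C1qa, Cd55 and Cd59a have points on both sides of the threshold.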

How the data were processed

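The values are raw counts per gene symbol as the authors deposited them, 1 table per library with no normalization, ending in 5 summary lines (25.2% to 26.1% of entries) that were left out. HISAT2 2.2.1, HTSeq 0.12.4, DESeq2 1.26.0 and the mm10 build are named in the submitters' processing notes. Neither annotation nor strand setting was given in the sources used here. Groups came from the titles.

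The 2 groups were tested in edgeR 4.0.16 under R 4.3.3 (filterByExpr, trimmed mean of M values, quasi-likelihood F test with legacy off, Benjamini-Hochberg adjustment over 15012 genes). CPM divides by the gene total. Standard errors were obtained from the fold change and the F statistic. The steps were tested on simulated data. Alternatives used DESeq2 1.42.0 and limma 3.58.1, among others. Loci and exon lengths came from GENCODE M21 (GRCm38, the assembly of mm10), and upstream sequences from RefSeq (GRCm38.p6), in which 5 of 8 members matched and C1qa, C4b and Serping1 did not. Floors cover counting error only, since reads have no molecular identifiers.

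The members and lists were chosen with earlier results of these data known. The genes named are all members, their close paralogs, the other complement genes past the threshold, genotype and sex checks, defining markers and the genes of most similar pattern. Some genes meeting this rule are left unreported. A few non-members that did not pass (C2, Cfb, C1s2, Masp2, C3ar1 and Cd46) were named after their values were seen. So were the markers Fcrls, Flt1, Kdr and Ogn. Ratios to marker sums (with and without Aif1), the listed differences between fold changes and their intervals were also added after seeing the data. The microglial list without Sall1, Cd68 and Lyz2 was not among the lists planned at the outset.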

Additional observations from a re-analysis of the deposited data

How the results depend on the processing

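C1qb, C1qc, C3, C4b and Serping1 kept their direction and their side of the threshold under all 16 alternatives that gave a value. The stricter low-count filter removed the 3 C1q chains and so gave no value for them. Of the 16 alternatives of each C1q chain, 1 was instead the shared fit of the 3 chains added up. With DESeq2, C1qa (-1.56) and Cd55 (0.94) no longer passed, all tested genes came to 1055 higher and 1642 lower, and the other complement genes to 3 higher and 5 lower. Tested against a 1.2-fold change, 279 of all genes were higher and 760 lower, and of the other complement genes 1 was higher and 5 lower. Without a low-count filter 3 other complement genes were higher. Upper quartile scaling gave 2939 higher and 2288 lower over all genes, against 2263 and 2711 as reported, and every member kept its direction and call. With 1 library left out, C1qa ranged from -2.85 to -0.90 and Cd59a from 0.31 to 1.07, both crossing the threshold, the other complement genes higher numbered 2 to 4, and C4a ranged from -0.32 to 0.19. The ratio of C1q to C3 then differed between groups by -0.49 to 0.10. The cause of these changes was not tested. Of the 15 other complement genes past the threshold, 4 kept their call in every alternative run, Clu, Cd93 and Csmd1 among them, and Masp1, Csmd2 and Calr lost it only against a 1.2-fold change. With the replicate block the members' calls did not change, and Cd59a was at 0.64 (adjusted p = 0.0651). Replicate 1 and 2 deviated together only weakly across groups (r = 0.095 over 10637 genes at 10 CPM or more), so the numbers were not taken as pairs. Depth limits the C1q chains most, at 1 to 33 counts per library.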
